A study of Ocimum americanum with 4 samples.

Results

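The 5 unigenes described here encode chlorophyll a-b binding proteins, the light-harvesting antenna of the chloroplast. These unigenes were compared between untreated and chilled leaves of the basil *O. americanum* var. *pilosum*. They are Ob_27974, Ob_20245, Ob_20246, Ob_22937 and Ob_09321, out of 42816 unigenes in the deposited expression table. They were taken as a list of names, chosen by their high FPKM in control leaves and their lower FPKM after chilling. Those levels and that difference are therefore given as a description, with no test. By word pattern on the annotation, 17 unigenes matched chlorophyll a-b binding proteins, so 12 others remained for comparison. All 5 members and all 12 others passed the filter set for tests, a mean of 1 FPKM or more over the 4 libraries, as did 33036 unigenes in all.

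The study asked how the leaf transcriptome of this chilling-sensitive plant responds to cold. Leaves came from 30-day-old plants, with 2 libraries from untreated controls and 2 from plants moved to 4 °C for 12 h. All plants were raised at 21 °C per the labels, while the methods of the article give a slightly different temperature. The methods call the 2 samples of each treatment biological replicates. The hour of leaf collection and the number of plants behind a sample were not given in the sources used here.

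Antenna proteins bind most of the chlorophyll of a leaf and pass the energy of absorbed light to the reaction centres of the photosystems. They are encoded in the nucleus by a multigene family, imported into the chloroplast and inserted into the thylakoid membrane, where they are stable only with their pigments bound. LHCB proteins serve photosystem II, in which LHCB1, LHCB2 and LHCB3 form the trimers of light-harvesting complex II. LHCA proteins form a belt of dimers along photosystem I. In Arabidopsis, transcription of these genes depends on light, on signals from the plastid and on the circadian clock.

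By annotation, 3 of the members belong to the photosystem II antenna. Ob_27974 best matched tobacco CAB21 in Swiss-Prot and carries the KEGG name LHCB1, while Ob_20245 and Ob_20246 both matched tobacco CAB36 and carry the name LHCB2. The other 2 belong to the photosystem I antenna and carry the KEGG name LHCA4. Ob_22937 matched lhcA-P4 of pea and Ob_09321 matched LHCA4 of Arabidopsis. Of the 33 Gene Ontology terms given to any member, 16 were given to all 5. Primers for quantitative RT-PCR were designed by the study for only 1 of the members, Ob_20246. They are shown as the study listed them for Ob_20246. They were not compared with the sequence of either LHCB2 unigene, so whether the assay tells Ob_20246 from Ob_20245 was not tested. The forward primer has 23 bases with 56.5% G and C, the reverse primer 24 bases with 45.8%. The article reports that Ob_20246 was repressed by chilling in this assay.

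Ob_20246 forward: cggagactatggttgggacactg

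Ob_20246 reverse: ccaaacttaacaccgttcttggag

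The label "abundant" fitted the control leaves. When the 42816 unigenes were ranked by mean FPKM in the control, Ob_27974 stood at rank 4, Ob_20245 at 8, Ob_20246 at 15, Ob_22937 at 17 and Ob_09321 at 71. FPKM, a fragment count scaled by unigene length and by the size of the library, is a level per length, so levels of different unigenes can be compared. The members were neither the 5 most abundant antenna unigenes nor the 5 with the largest difference. Ob_13139 (LHCA2), Ob_16432 (CP26), Ob_16531 (LHCA1), Ob_21601 (CP24) and Ob_19308 (CP29) lay above Ob_09321 in the control. After chilling the members stood at ranks 58, 523, 3331, 185 and 4840, in the order given above.

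LHCB1 is the main protein of the light-harvesting complex II trimer, and Ob_27974 was the only unigene that KEGG named LHCB1. Its level was 4259 and 4191 FPKM in the control libraries and 798.57 and 788.85 FPKM after chilling. The treatments did not overlap, and the replicates differed far less than the treatments. The mean went from 4225 ± 48.0 FPKM to 794 ± 6.87 FPKM (SD, n = 2 each), which is 5.32-fold lower and leaves 18.8% of the control level. It remained the most abundant of the 5 after chilling.

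LHCB2 shares the trimers with LHCB1, and in Arabidopsis its phosphorylation accompanies the movement of light-harvesting complex II between the photosystems. Ob_20245 had 3681 and 3650.5 FPKM in the control libraries and 190.17 and 194.13 FPKM after chilling. Its mean was 3666 ± 21.7 FPKM in the control and 192 ± 2.80 FPKM after chilling (SD, n = 2 each), 19.1-fold lower. In Ob_20246 the ratio of control to chilling was larger than in any other antenna unigene, although in FPKM it lost less than Ob_20245. It had 2505 and 2519 FPKM in the control libraries and 48.46 and 47.46 FPKM after chilling. The mean went from 2512 ± 9.79 FPKM to 47.96 ± 0.707 FPKM (SD, n = 2 each), 52.4-fold lower, so that 1.91% of the control level was left. In the control, Ob_20245 was thus nearer to LHCB1 Ob_27974 (4225 FPKM) than Ob_20246 was. After chilling, both LHCB2 unigenes were well below LHCB1 (794 FPKM).

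LHCA4 pairs with LHCA1 in the photosystem I belt and, in Arabidopsis, holds the chlorophylls that absorb at the longest wavelengths. Ob_22937 had 2463 and 2456.5 FPKM in the control libraries and 396.81 and 396.84 FPKM after chilling. Its mean went from 2459.9 ± 4.79 FPKM to 397 ± 0.0212 FPKM (SD, n = 2 each), 6.20-fold lower. Ob_09321, the least abundant member, differed more from its control level than Ob_22937 did. It had 953.25 and 985.14 FPKM in the control libraries and 34.23 and 34.94 FPKM after chilling. Its mean went from 969 ± 22.5 FPKM to 34.6 ± 0.502 FPKM (SD, n = 2 each), 28.0-fold lower.

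**Figure D1:**
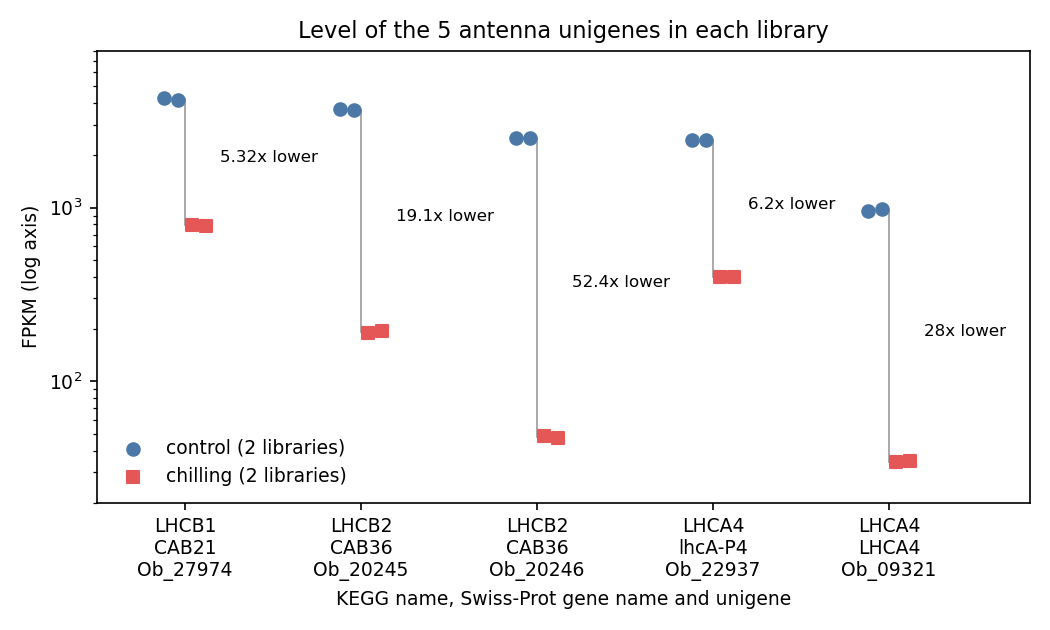
FPKM (log axis) of the 5 members in each of the 2 control libraries (circles) and 2 chilling libraries (squares), with the ratio of the means beside each line. The replicates nearly coincide, and the chilled levels of Ob_20246 (47.96 FPKM) and Ob_09321 (34.6 FPKM) lie furthest from their control levels.

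The control order was Ob_27974, Ob_20245, Ob_20246, Ob_22937, Ob_09321, and after chilling it was Ob_27974, Ob_22937, Ob_20245, Ob_20246, Ob_09321. In both orders each neighbour differed by more than the replicate values spread. Across the 5 members, the log2 ratio of replicates ran from -0.0475 to 0.0232 in the control and from -0.0297 to 0.0301 after chilling. Variation between plants beyond these pairs was not measured. Since the RNA came from whole leaves, fewer cells of a type and less RNA per cell cannot be told apart.

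Together the 5 members made up 1.58% of all FPKM in each control library, and 0.190% and 0.189% in the chilling libraries. Their summed level was 13862 and 13802.5 FPKM in the control and 1468 and 1462 FPKM after chilling, a mean of 13832 ± 42.2 against 1465 ± 4.26 (SD, n = 2 each) and 9.44-fold lower. The FPKM of all unigenes also summed to less after chilling, 773457 and 772255 against 875599 and 874864. The 5 members held 12.1% of that difference, and all 17 antenna unigenes held 22.4%. Rescaled so that every library has the same total, the members' sum was 8.34-fold lower.

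Proportions within a library do not depend on how libraries are scaled to each other. The members made up 49.70% of the summed FPKM of the 17 antenna unigenes in each control library, and 29.90% and 29.92% after chilling. Most of this shift lay in LHCB2. The LHCB2 unigenes held 22.2% of the antenna sum in both control libraries and 4.86% and 4.94% after chilling. LHCB1 Ob_27974 hardly shifted, with 15.3% and 15.1% in the control and 16.3% and 16.1% after chilling.

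**Figure D2:**
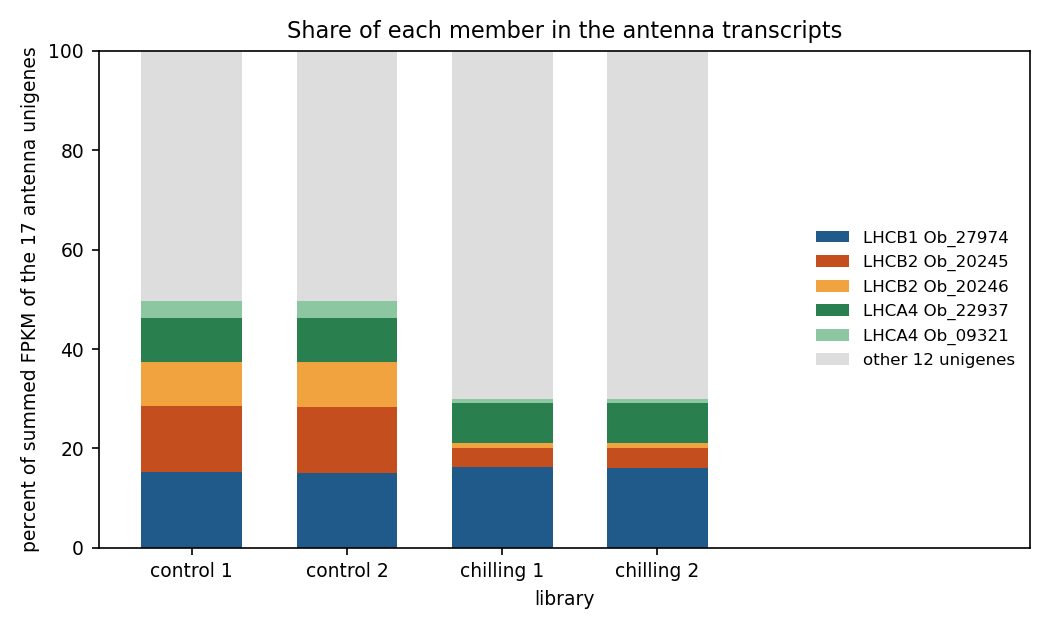
Percent of the summed FPKM of the 17 antenna unigenes held by each of the 5 members and by the 12 others, for each of the 4 libraries. The LHCB2 segments shrink from 22.2% to 4.86% and 4.94%, while the LHCB1 segment stays between 15.1% and 16.3%.

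Ratios between members with the same name shifted too. The level of Ob_20246 relative to Ob_20245, both LHCB2, was 0.681 and 0.690 in the control libraries and 0.255 and 0.244 after chilling. The level of Ob_09321 relative to Ob_22937, both LHCA4, was 0.387 and 0.401 in the control and 0.0863 and 0.0880 after chilling. In each of these pairs of members, the less abundant unigene in the control had the larger ratio of control to chilling, though it lost fewer FPKM. The LHCB2 unigenes together exceeded LHCB1 in the control, at 1.45 and 1.47 times its level, and lay below it after chilling, at 0.299 and 0.306 times. By contrast, Ob_22937 kept close to LHCB1, at 0.578 and 0.586 times its level in the control and 0.497 and 0.503 times after chilling. Unigenes with the same match can share reads, and RSEM divides such reads by estimation, so how levels split between Ob_20245 and Ob_20246 is less certain than their sum. Ob_20245 and Ob_20246 have consecutive numbers, and of the 15911 consecutive pairs in which both unigenes had a Swiss-Prot match, 2024 (12.7%) shared the same entry.

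The 12 other antenna unigenes were tested with limma, although their general direction was known when the list was made. Of them, 10 fell and none rose, where a call needs at least a 2-fold ratio of mean FPKM and an adjusted p no higher than 0.01. Over all 33036 tested unigenes, 13.8% were called lower and 11.9% higher. The median log2 change of the 12 was -1.85, and that of all tested unigenes was -0.00. Their summed level went from 13998 ± 43.3 FPKM to 3434 ± 11.5 FPKM (SD, n = 2 each), 4.08-fold lower, against 9.44-fold for the members. Without either control library, 9 of the 12 were called, because the fragment Ob_29659 was lost.

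In the photosystem II antenna, CP24, CP26 and CP29 are monomers that join the trimers to the core. CP24 Ob_21601 fell from 2151 to 266 FPKM, by 3.01 on the log2(FPKM + 1) scale (SE 0.011, adjusted p 1.9e-10 from limma). CP26 Ob_16432 fell 3.62-fold, from 2601 to 718 FPKM. The CP29 unigenes fell less, Ob_19308 from 1335 to 507 FPKM and Ob_21180 from 730 to 260 FPKM. LHCB7 Ob_27883, a rare relative, fell from 59.0 to 17.2 FPKM. Ob_29659, which matched a fragment of light-harvesting complex II type 1, fell from 22.1 to 2.24 FPKM. No unigene carried the KEGG name LHCB3 or LHCB6, and CP24 Ob_21601 carries a KEGG name from outside the antenna, fabZ.

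In the photosystem I antenna, the most abundant unigene was LHCA2 Ob_13139, which fell from 3310 to 699 FPKM, by 2.24 on the log2(FPKM + 1) scale (SE 0.0094, adjusted p 2.5e-10 from limma). LHCA1 Ob_16531, the partner of LHCA4, fell 5.29-fold, from 2591 to 489 FPKM. LHCA3 Ob_24102 fell from 494 to 137 FPKM. Ob_09322 also matched Arabidopsis LHCA4, next to Ob_09321 in number, and fell 20.1-fold, from 332 to 16.5 FPKM. It stood at 0.352 and 0.334 times Ob_09321 in the control and at 0.416 and 0.539 times after chilling. LHCA5 and a further LHCA2 unigene were not called. LHCA5 Ob_18120, whose product in Arabidopsis helps to link photosystem I with the NDH complex, had 190 FPKM in the control and 143.5 FPKM after chilling, a ratio of 1.33 with an adjusted p of 2.1e-05 from limma. LHCA2 Ob_23161 had 183 and 177 FPKM, a log2 change of -0.05 (adjusted p 0.088 from limma), which turned to 0.13 after rescaling to equal totals. The other LHCA2 unigene, Ob_13139, fell 4.74-fold.

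**Figure D3:**
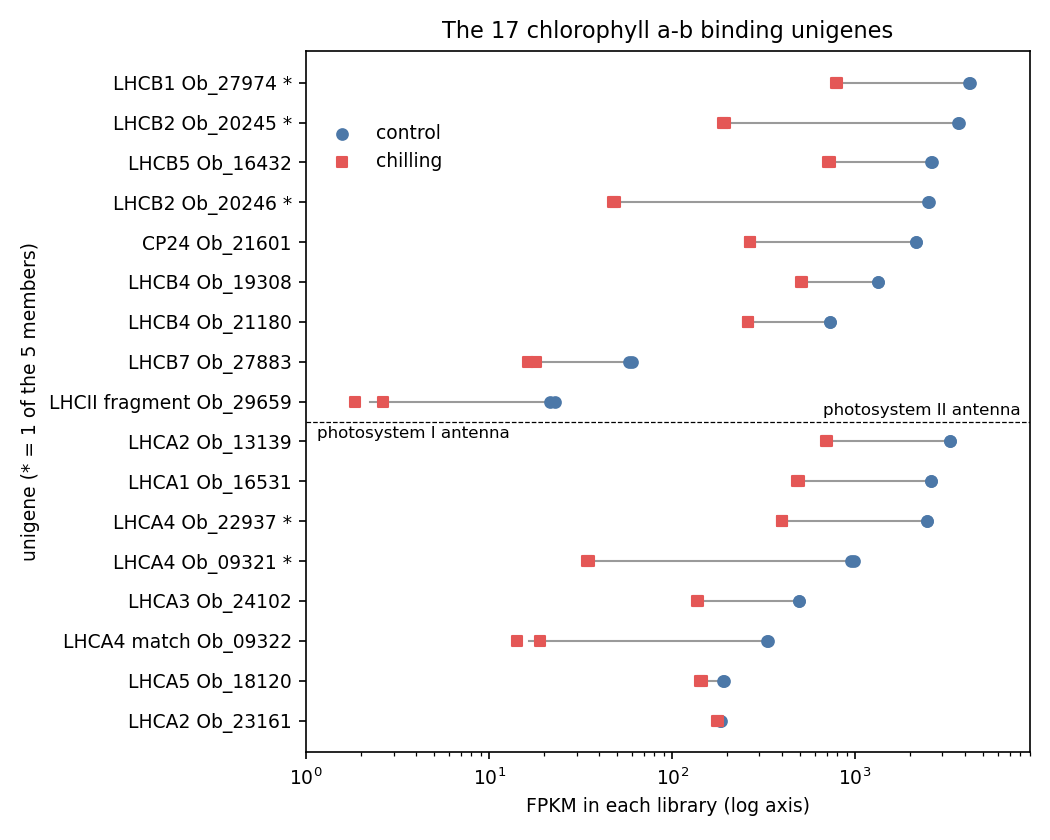
FPKM (log axis) of the 17 antenna unigenes in the 2 control libraries (circles) and the 2 chilling libraries (squares), with the photosystem II antenna above and the photosystem I antenna below the dashed line, and stars at the 5 members. The longest lines belong to Ob_20246 and Ob_09321, and at LHCA2 Ob_23161 the symbols of both treatments touch.

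Summed by photosystem, the 9 unigenes of the photosystem II antenna were 6.17-fold lower, from 17301 to 2805 FPKM. The 8 of the photosystem I antenna were 5.03-fold lower, from 10530 to 2094 FPKM. The ratio of photosystem II to photosystem I antenna was 1.65 and 1.64 in the control libraries and 1.34 in both chilling libraries. Both sums include members, which were chosen by their lower level after chilling. The difference between the photosystems therefore depends on that choice and is given as a description only.

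The photosystems that the antenna serves had smaller medians. Of 12 tested photosystem I subunits, 1 fell and 1 rose (median log2 change -0.45). That is 8.33% each way, against 13.8% lower and 11.9% higher over all tested unigenes. PSAN Ob_12916, a subunit on the lumen side, fell from 1104 to 246 FPKM, and plastid-encoded psaB Ob_17221 rose from a listed 0 in either control library to 2.92 and 1.77 FPKM after chilling, a call that was lost without control replicate 1 or 2. The most abundant, PSAF Ob_26765, had 2332 and 1366 FPKM and was not called. Of 22 photosystem II subunits, 4 fell (18.2%) and none rose (median -0.56). Those that fell included PSBP Ob_07925 of the oxygen-evolving complex, from 170 to 20.8 FPKM, and PSBY Ob_15304, from 535 to 203 FPKM. The core antenna protein psbC Ob_24175 fell from 314 to 152 FPKM. Unigenes matched to PSBP1, another entry for the protein of PSBP, were not called, the most abundant being Ob_34126 with 1382 and 935 FPKM. Neither was PSBY Ob_15090, with 256 and 150 FPKM. PSBR Ob_16678, the most abundant of the list, had 4095 FPKM in the control and 3170 FPKM after chilling and was not called. Rescaling to equal totals left 2 photosystem II subunits lower and 1 higher. The summed photosystem II antenna was 0.974 and 0.969 times the summed photosystem II subunits in the control libraries and 0.249 and 0.247 times after chilling. For photosystem I the same ratio went from 0.857 and 0.862 to 0.272 and 0.274. The antenna sums in these ratios include the members, which were chosen by their difference.

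Further along photosynthesis, 15.4% of electron transport and 11.1% of plastid ATP synthase unigenes were called lower, against 13.8% over all tested unigenes. The shares called higher were 0% and 11.1%, against 11.9%. Of 13 electron transport unigenes, 2 fell and none rose (median 0.04). These were ferredoxin Ob_10852, from 1093 to 344 FPKM, and plastocyanin Ob_17638, from 1852 to 785 FPKM, both mobile carriers of electrons. Other ferredoxin unigenes, such as Ob_15620 (975 and 581 FPKM), and plastocyanin Ob_17639 (415 and 426 FPKM) were not called. Ferredoxin-NADP reductase PETH Ob_20016 had 3369 and 3646 FPKM and was not called. Of 9 plastid ATP synthase unigenes, ATPD Ob_24425 fell from 291 to 70.65 FPKM and atpB Ob_31820 rose from 3.33 to 7.91 FPKM, a call that was lost when any library was left out. ATPD Ob_24424, next to Ob_24425 in number, had 1013 and 791 FPKM and was not called. In the rubisco list, 6 of 8 fell and none rose (median -2.32), while the summed level was 1.63-fold lower. The largest log2 changes of FPKM + 1 were in RCAA Ob_05297 (-4.53), Ob_14798 (-3.34) and RCA2 Ob_14799 (-3.08). All 3, like the other unigenes of this list that fell, matched rubisco activase, which frees rubisco of inhibiting sugars. RBCS Ob_31465, the small subunit of rubisco and the most abundant unigene of the control, had 13826 and 10260 FPKM, a ratio of 1.35, and was not called.

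Proteins related to the antenna by sequence moved in both directions, with 1 of 6 called lower and 2 higher. PsbS Ob_17560, the sensor of energy-dependent quenching, had 2372 FPKM in the control and 1230 FPKM after chilling, a ratio of 1.93, and was not called. Stress-enhanced protein 1 Ob_14543 fell from 182 to 61.0 FPKM, while Ob_16479, with the same match, had 46.1 and 49.0 FPKM and was not called. The unigenes matched to stress-enhanced protein 2 rose, Ob_14342 from 0.475 to 14.2 FPKM and Ob_22326 from 4.11 to 10.7 FPKM. The call of 1 of them was lost without control replicate 2 or either chilling replicate. In the xanthophyll cycle list, which sets the carotenoids that antenna proteins bind, 2 of 8 fell and 1 rose. The most abundant zeaxanthin epoxidase unigenes fell, Ob_19662 from 369 to 65.1 FPKM and ABA2 Ob_34797 from 121 to 19.1 FPKM. ZEP Ob_13558, of low level, rose from 0.890 to 3.03 FPKM, and the rise was lost when any library was left out.

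Antenna proteins need chlorophyll a and b to fold. In the chlorophyll synthesis list 18 of 34 fell and none rose (median log2 change -1.11), and the summed level went from 10248 to 2624 FPKM. Chlorophyllide a oxygenase, which makes chlorophyll b, fell 33.9-fold in Ob_21874, from 73.5 to 2.17 FPKM, and 37.6-fold in Ob_21873. CHLP Ob_28721, which reduces the side chain of chlorophyll, fell from 445 to 21.6 FPKM. In the chlorophyll breakdown list 5 of 12 fell and 4 rose. SGRL Ob_27587, a relative of the magnesium dechelatase, fell from 233 to 45.4 FPKM, whereas chlorophyll b reductase NYC1 Ob_27793 rose from 61.8 to 172 FPKM. The chlorophyllase unigenes CLH2 rose, Ob_17664 from 0.755 to 35.9 FPKM and Ob_29571 from 172 to 422 FPKM. Unigenes matched to pheophytinase PPH went both ways, Ob_28605 falling from 65.8 to 15.9 FPKM and Ob_34435 rising from 10.5 to 56.1 FPKM.

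**Figure D4:**
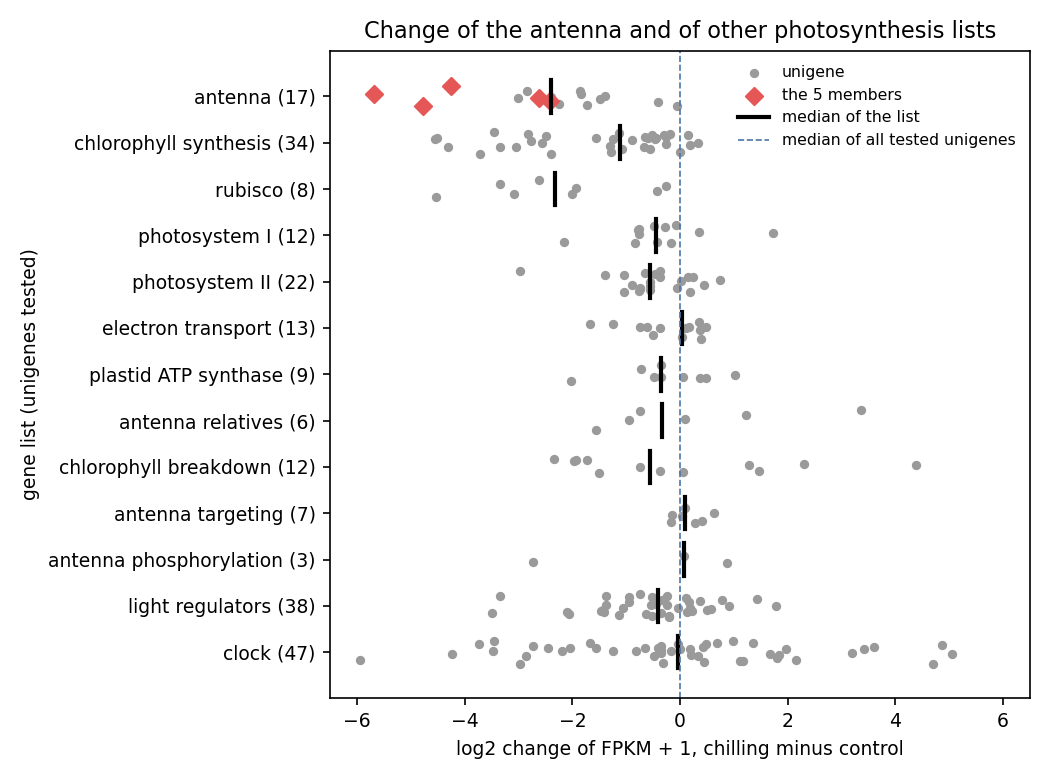
Log2 change of FPKM + 1, chilling minus control, for the tested unigenes of the antenna list and of 12 other lists, with the number tested in parentheses, the median of each list as a black bar and the 5 members as diamonds. The antenna median includes the 5 members, which were chosen by this difference, and is -1.85 without them. The rubisco list has a median of -2.32 and holds mostly rubisco activase unigenes of low level. Its summed level was 1.63-fold lower, against 4.08-fold for the 12 other antenna unigenes. The lists of targeting (0.10) and phosphorylation (0.07) have medians near the dashed line of all unigenes.

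Targeting of antenna proteins within the chloroplast runs through LTD and the signal recognition particle. None of the 7 targeting unigenes was called by limma, 0 in either direction, and their summed level was 745 FPKM in the control and 769 FPKM after chilling. LTD Ob_18496, the most abundant, had 348 and 373 FPKM (log2 change 0.10, adjusted p 0.0099). In the list of antenna phosphorylation, 1 of 3 fell. It was STN7 Ob_23018, whose product phosphorylates light-harvesting complex II including LHCB2, and it went from 192 to 28.0 FPKM, 6.88-fold lower (adjusted p 1.5e-08 from limma). PPH1 Ob_21373, the opposing phosphatase, had 155 and 284 FPKM, a ratio of 1.83, and was called higher only after rescaling to equal totals.

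Among light regulators 12 of 38 fell and 2 rose (median -0.40). GLK transcription factors activate antenna and chlorophyll synthesis genes in Arabidopsis, and GLK1 Ob_25312 fell from 81.9 to 7.11 FPKM and GLK1 Ob_25714 from 26.5 to 5.42 FPKM. Ob_21240, which matched BHLH72, the phytochrome-interacting factor PIF7, fell from 110 to 8.85 FPKM. The 2 that rose were of low level, PHYB Ob_14186 from 3.11 to 6.74 FPKM and COP1 Ob_29141 from 0.475 to 4.04 FPKM. The most abundant regulator, the blue light receptor CRY1 Ob_31174, had 92.3 and 72.0 FPKM and was not called. The count that fell dropped to between 5 and 7 when any library was left out, and the count that rose to 0.

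Clock unigenes went both ways, 14 of 47 lower and 15 higher (median -0.03), and between 10 and 11 were higher when any library was left out. The morning factor LHY Ob_36772 had 20.62 and 15.28 FPKM in the control libraries and was listed at 0 in both chilling libraries, and RVE7 Ob_33550 fell from 103 to 0.685 FPKM. The evening gene ELF4 Ob_14954 rose from 0.265 to 41.0 FPKM. Unigenes matched to RVE1 went both ways, Ob_30053 falling from 73.5 to 4.59 FPKM and Ob_30869 rising from 3.12 to 118 FPKM. GI Ob_36619, another evening gene, had 84.1 and 118 FPKM and was not called. The part of the clock and of the hour of collection in the antenna values was not tested.

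Markers of other leaf cell types went both ways, as did all tested unigenes, of which 13.8% were called lower and 11.9% higher. The shares lower and higher were 8.20% and 14.8% for epidermis, and 11.8% and 11.8% for glandular trichomes. They were 11.5% and 11.5% for the vascular list, and 21.4% and 21.4% for guard cells. Of 61 epidermal unigenes 5 fell and 9 rose, and their summed level was 1031 and 1065 FPKM in the control libraries and 1142 and 1168 FPKM after chilling. Of 17 glandular trichome unigenes 2 fell and 2 rose, with sums of 658 and 655 FPKM in the control libraries and 632 and 641 FPKM after chilling. Of 14 guard cell unigenes 3 fell and 3 rose, with sums of 145 and 141 FPKM in the control libraries and 151 and 147 FPKM after chilling. Of 26 vascular unigenes 3 fell and 3 rose, with sums of 367 and 371 FPKM in the control libraries and 774 and 766 FPKM after chilling. A single one, Ob_26657, matched to the MYB-family protein APL, rose from a mean of 52.6 to 360 FPKM. In these 4 lists, 0 markers were listed at 0 in every library. The part of cell types in the antenna values was not tested. RBCS, a defining transcript of green leaf tissue, had 13829 and 13824 FPKM in the control libraries and 10256 and 10265 FPKM after chilling. It was not called, while 6 of 8 tested unigenes of the rubisco list fell, among them RCA2 Ob_22113 from 4921 to 1295 FPKM. Of 22 photosystem II unigenes, 4 fell.

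Among the 204 unigenes with a control mean of at least 500 FPKM, the ratio of control to chilling means had a median of 1.77. The places of the members in this set follow in part from how they were chosen and are given as a description. Ob_20246 had the largest ratio, Ob_09321 the next and Ob_20245 the third. Ob_22937 came at place 16 and Ob_27974 at 19, among 23 unigenes over 4-fold lower. Directly after Ob_20246, Ob_09321 and Ob_20245 came protochlorophyllide reductase Ob_25290 (13.2-fold), the inositol oxygenase MIOX4 Ob_21276 (10.3-fold) and a starch synthase SS4 match, Ob_29658 (8.76-fold).

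**Figure D5:**
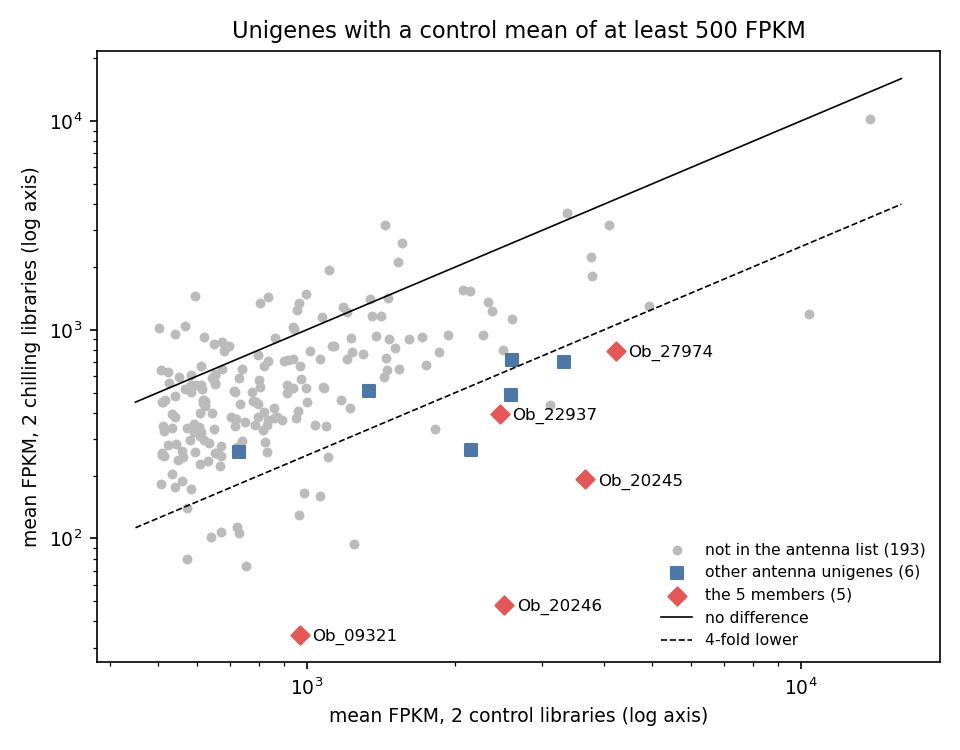
Mean FPKM of the 2 chilling libraries against mean FPKM of the 2 control libraries (log axes) for the 204 unigenes with a control mean of at least 500 FPKM, of which 5 are the members and 6 are other antenna unigenes. Ob_20246, Ob_09321 and Ob_20245 lie furthest below the dashed line of a 4-fold lower level.

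The unigenes most like each member were found by the Euclidean distance of log2(FPKM + 1) over the 4 libraries, among unigenes outside the antenna list. With 4 libraries in 2 treatments, this distance reflects little more than the level and the difference. Nearest to LHCB1 Ob_27974 were rubisco activase RCA2 Ob_22113 (1.05), a chloroplast carbonic anhydrase Ob_27759 (1.07) and Ob_14454, which has no Swiss-Prot match (1.22). For Ob_20245 they were CRD1 Ob_25895, the cyclase of chlorophyll synthesis (1.70), a chloroplast aldolase Ob_32048 (1.82) and PSAN Ob_12916 (2.50). For Ob_22937 the nearest were CRD1 (0.52) and the same aldolase (0.704).

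The nearest to Ob_20246 were protochlorophyllide reductase Ob_25290 at 1.97, MIOX4 Ob_21276 at 2.60 and the proline-rich protein Ob_22698 at 2.79. For Ob_09321 they were MIOX4 at 1.59, CHLP Ob_28721 at 1.84 and a thioredoxin F Ob_15650 at 1.99. Antenna unigenes were closer in 3 of the 5 cases, LHCA2 Ob_13139 to Ob_27974 (0.562), CP24 Ob_21601 to Ob_20245 (1.27) and LHCA1 Ob_16531 to Ob_22937 (0.44).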

How the data were processed

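Leaf RNA of 2 control and 2 chilling samples was sequenced. According to the methods of the article, the authors trimmed reads, assembled them de novo with Trinity and estimated FPKM with RSEM; the deposited FPKM values have 2 decimals and were not scaled to equal totals. Unigenes were annotated by the authors with BLASTX at 1e-05. Deposited tables of the genes that the authors called up- or down-regulated, with fold changes and tests (edgeR per the labels), were not used, nor were their 8 columns of FPKM per sample.

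Here log2(FPKM + 1) was fitted with limma 3.58.1 in R 4.3.3, with a trend, for the 33036 unigenes averaging 1 FPKM or more (2 residual degrees of freedom, prior 4.41), with Benjamini-Hochberg adjustment over all of them. A call needs at least a 2-fold ratio of means and an adjusted p no higher than 0.01. Python 3.11.15 with pandas 2.3.3, numpy 2.4.6 and matplotlib 3.10.9 was used for tables and plots. The members and the 18 gene lists, word patterns on the annotation, were chosen with earlier results of these data known. Named were the members, all antenna unigenes, in other lists the most abundant unigene and up to 3 called per direction with the largest change (not all of these are printed), and the 3 nearest unigenes of each member, of which 1 is not reported here. As alternatives, the pseudocount was set to 0.1, the filter was dropped or raised to 5 FPKM, and the others were rescaling to TPM or by median ratio, no trend, a replicate block, an adjusted p of 0.05 and leaving out each library. Read counts per unigene were not used, so the number of reads behind a value is unknown. The article lists fewer clean reads for each chilling library than for each control library. Over low values whose replicates nearly matched, the median ratio of replicates was 1.02 in both treatments. That choice of values held the ratio near 1, so it cannot show how depth differed between replicates.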

Additional observations from a re-analysis of the deposited data

How the results depend on the processing

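Of the 12 antenna unigenes that are not members, 10 were called lower under all alternatives except without control replicate 1 or 2 (9). Over the photosynthesis and regulator lists, 67 were called lower and 26 higher, against 56 to 60 and 16 to 17 when a library was left out. Over all unigenes, 4548 were called lower and 3917 higher, against 2193 and 2035 with a mean FPKM of at least 5, and 1586 to 1686 and 1242 to 1575 when a library was left out. Those fits have fewer samples, and a lone sample is assumed to vary like the other treatment. The members' sum was 9.44-fold lower, 8.34-fold after rescaling to TPM and 9.36-fold with median-ratio factors. Rescaling to TPM moved the median log2 change of all unigenes from -0.00 to 0.15 and the share of calls that were higher from 46.3% to 57.9%. The members' log2 changes were then -2.23 (Ob_27974), -4.07 (Ob_20245), -5.51 (Ob_20246), -2.45 (Ob_22937) and -4.60 (Ob_09321). Same-numbered libraries shared only a number (correlation of deviations 0.0076), and with the replicate block 4102 unigenes were called lower, among them 10 of the 12 antenna unigenes, and 3576 higher. The reads behind each unigene are unknown, so how depth limits low levels such as those of Ob_29659 cannot be given.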

Other observations

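Ob_29658 and Ob_29659 have consecutive numbers and different annotations. Ob_29658 matched starch synthase SS4 and had 10382 FPKM in the control and 1184 FPKM after chilling, 8.76-fold lower, and Ob_29659 matched a light-harvesting complex II fragment and was 9.89-fold lower at 22.1 and 2.24 FPKM. CP24 Ob_21601 matched CP24 in Swiss-Prot and nr but carries the KEGG name fabZ, a dehydratase of fatty acid synthesis, so a count by KEGG name would leave it out of the antenna.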
